A study of Mus musculus with 9 samples.

Results

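The genes described here are the 8 that write and erase methylation on cytosine in DNA, *Dnmt1*, *Uhrf1*, *Dnmt3a*, *Dnmt3b*, *Dnmt3l*, *Tet1*, *Tet2* and *Tet3*. They were chosen by name, and all 8 have a row among the 55228 genes of the count table. Of these, 7 of the 8 passed the filter on low counts, as did 15253 genes in all. Poly-A RNA was sequenced from HC11 cells, a line of mouse mammary epithelial cells that can be induced to make milk proteins. There were 3 cultures each of the parental line (*WT*) and of the lines *KD1* and *KD2*, in which *Vangl2*, a gene of planar cell polarity, had been targeted by CRISPR/Cas9. Every culture was grown to near confluence in medium with serum, insulin and epidermal growth factor, and received no other treatment. Each *KD* line was grown from 1 colony after editing with its own guide and a repair template carrying stop codons, so a line stands for 1 clone, and what sets a clone apart cannot be told apart from the edit. The labels call both lines knockouts. The legend of the study's supplementary figure that includes these data speaks of biological replicates without naming the panels, and the labels do not say whether the 3 cultures of a line were started separately, so the p-values measure the spread between these samples, which may be technical.

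DNA methylation is copied onto the new strand at replication by DNMT1, which UHRF1 brings to hemimethylated sites. DNMT3A and DNMT3B place new methyl groups, helped in germ cells by DNMT3L, which has no catalytic activity of its own. The TET enzymes oxidise methylated cytosine, a step towards its loss, and TET1 and TET3 have forms that bind CpG-rich DNA directly, while TET2 has lost that domain and relies on partners. The files hold transcript levels, so neither the proteins nor methylation itself was measured.

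Depth ran from 19231428 to 28360592 counts per culture, and a count of 3, taken as the floor of what a library can show, was worth 0.0999 to 0.154 counts per 1000000 (CPM). Of the 10 mammary epithelial markers, 9 were detected and *Krt19* had 0 counts in every library. Their summed level was between 5544 and 6069 CPM in *WT*, between 6097 and 6258 CPM in *KD1* and between 3185 and 3851 CPM in *KD2*. The 14 markers of other cell types summed to between 14.9 and 15.3 CPM in *WT*, between 19.6 and 22.7 CPM in *KD1* and between 85.9 and 94.9 CPM in *KD2*. Most of the last sum was *Pdgfrb*, at 66.8 ± 5.02 CPM (SD, n = 3) in *KD2* and 0.823 ± 0.236 CPM in *WT*, while 8 of the 14, among them *Ptprc*, *Cd3e* and *Adipoq*, were at or under the floor in *KD2* and *Adgre1* had 0 counts in every library. *Pdgfrb* was lower in *KD1* than in *WT*, at 0.142 CPM, near the floor (log2 fold change -2.50). Other markers past 2-fold were *Esrp1* and *Cldn7* of the epithelial list, with log2 fold changes of -1.28 and -1.92 in *KD2*, *Pdgfra* at 1.04 in *KD2*, and *Pecam1* at 1.18 in *KD1* and -1.23 in *KD2*. *Cldn7* was near the floor in *KD2*, at 0.189 CPM beside 0.770 CPM in *WT*. In *KD2*, 7 of the 9 epithelial markers tested were lower at an adjusted p under 0.05, beside 33.3% of all genes tested. Only *Krt8* was higher (log2 fold change 0.76), beside 34.0%. *Krt5* fell from 2117 to 1088 CPM and *Krt14* from 1527 to 819 CPM. The part of these shifts in the results below was not tested. *Vangl2* itself was at 3.85 CPM on average in *WT*, at 2.48 CPM in *KD1* and at 4.00 CPM in *KD2*, so the transcript level told *KD1* from *WT* (edgeR quasi-likelihood test, adjusted p = 0.0058) but not *KD2* from *WT* (edgeR adjusted p = 0.81). The study's immunoblots showed the VANGL2 protein almost absent in *KD1* and strongly reduced in *KD2*, which RNA counts do not measure. *WT* replicate 1 and *KD2* replicate 3 stood apart from the other cultures of their lines. A chi-square of their counts against those of the other replicates was 10.7 to 22.1 per degree of freedom, where every other pair within a line gave 1.37 to 3.38. Results for the methylation genes are therefore given without these libraries where that changes a call. Gene lists and shares over all genes are from all cultures.

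Transcripts of the 3 methyltransferases tested were lower in both *KD* lines, those of the cofactor *Uhrf1* were higher in both, and *Tet1* fell furthest of the 7 genes tested in each line. Against *WT*, *KD1* had 5 genes lower (*Dnmt1*, *Dnmt3a*, *Dnmt3b*, *Tet1* and *Tet3*) and 1 higher (*Uhrf1*) at an adjusted p under 0.05, where 30.0% of all genes tested were called lower and 26.9% higher. *KD2* also had 5 lower (*Dnmt1*, *Dnmt3a*, *Dnmt3b*, *Tet1* and *Tet2*) and 1 higher (*Uhrf1*, 0 without *WT* replicate 1), beside 33.3% and 34.0% of all genes. In either direction, 56.9% of all genes tested were called in *KD1* and 67.2% in *KD2*, so a call by itself says little about these genes. Without *KD2* replicate 3, 10077 of 15597 genes tested were called in *KD1* and 11098 in *KD2*. With all cultures these were 8686 and 10254 of 15253. The study's further limit of a fold above 2 was passed by *Dnmt3b* and *Tet1* in *KD1* and by *Tet1* in *KD2*, beside 16.8% and 21.2% of all genes. Of these passes, *Dnmt3b* in *KD1* was lost without *KD1* replicate 3 (log2 fold change -0.97) and *Tet1* in *KD2* without *KD2* replicate 3 (-0.98), while both stayed called at an adjusted p under 0.05. *Dnmt1*, *Dnmt3a*, *Dnmt3b* and *Tet1* were called lower in both lines, which held for 16.0% of all genes tested, and *Uhrf1* was called higher in both, which held for 13.4%. The comparisons share the 3 *WT* cultures and are not independent. In RNA from whole cultures, fewer cells with a transcript and less of it per cell cannot be told apart.

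**Figure D1:**
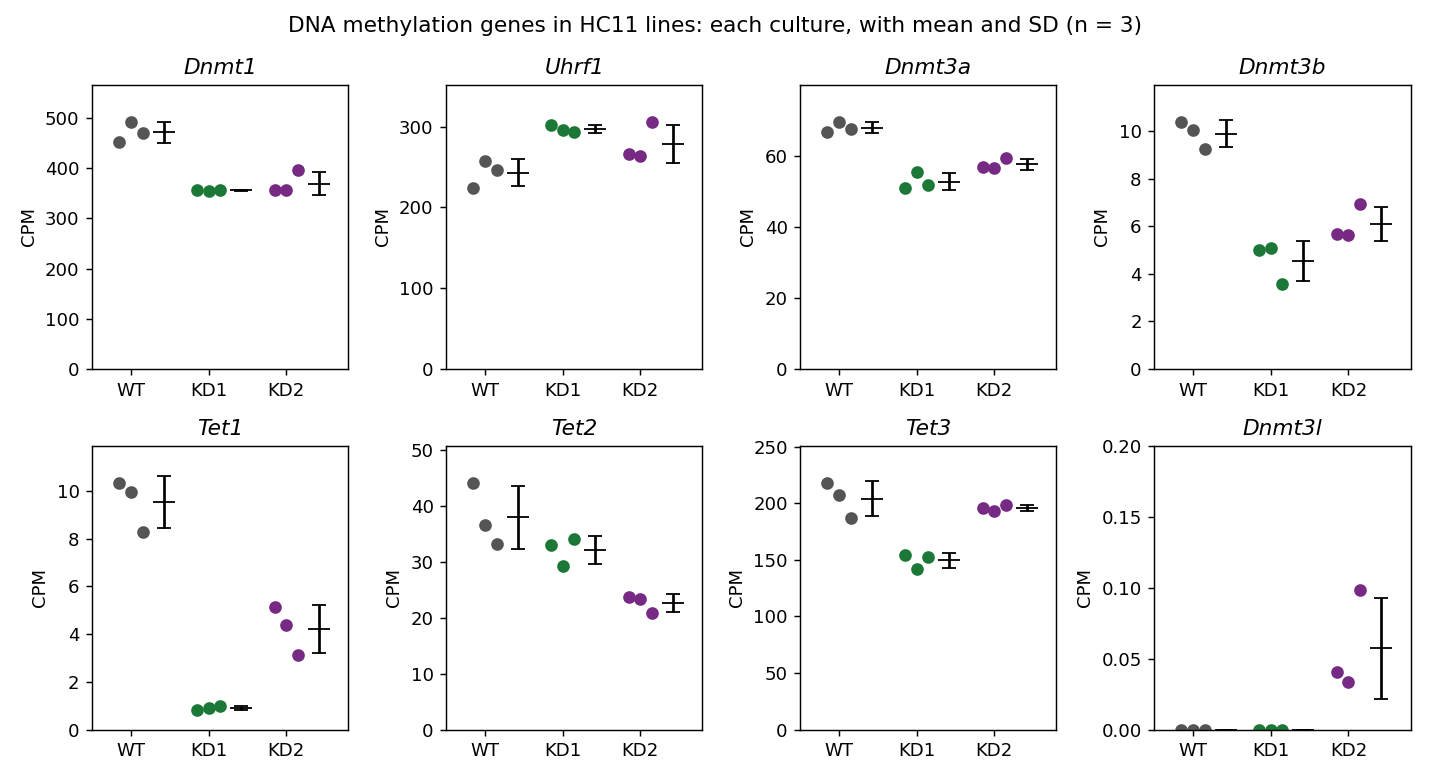
Transcript level of each gene in CPM, scaled to effective library size, for the 3 cultures of *WT*, *KD1* and *KD2* (points, replicates 1 to 3 from left to right), with the mean and SD (n = 3) as a bar to the right of each group. Every axis starts at 0 and has its own range. *Tet1* lies between 0.81 and 1.01 CPM in *KD1*, under every culture of the other lines, and the *Dnmt3l* values are all at or under 2 counts.

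*Dnmt1* (ENSMUSG00000004099, the maintenance methyltransferase) is encoded between 20907209 and 20959888 of chromosome 9 in GRCm38, on the minus strand. It was read at 451, 492 and 470 CPM in the *WT* cultures, at 356, 354 and 357 CPM in *KD1* and at 357, 356 and 396 CPM in *KD2*. All 6 *KD* cultures lay below all 3 *WT* cultures, and the *KD* lines overlapped. Its level fell by 0.41 on the log2 scale in *KD1* (SE 0.058, edgeR adjusted p = 3.9e-05) and by 0.35 in *KD2* (SE 0.058, edgeR adjusted p = 1.1e-04), which is a level 24.6% and 21.7% lower. Between the lines the log2 difference was 0.05, with a 95% interval of -0.07 to 0.18 (edgeR adjusted p = 0.42).

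*Uhrf1* (ENSMUSG00000001228), the protein that recognises hemimethylated CpG sites and recruits DNMT1, lies on the plus strand of chromosome 17 from 56303321 to 56323486. Its level was 224, 257 and 247 CPM in *WT*, 302, 296 and 293 CPM in *KD1* and 266, 263 and 306 CPM in *KD2*. It was the only gene of the 7 that moved up against *WT*. Neither *KD* line overlapped *WT*, though the highest *WT* culture, at 257 CPM, came close to the lowest *KD2* culture, at 263 CPM. The *KD* lines overlapped each other. The log2 fold change was 0.29 in *KD1* (SE 0.069, edgeR adjusted p = 0.0025) and 0.20 in *KD2* (SE 0.069, edgeR adjusted p = 0.022). The rise in *KD2* was lost without *WT* replicate 1, the lowest of the 3 *WT* values, at a log2 fold change of 0.14 (edgeR adjusted p = 0.11), while the rise in *KD1* stayed past the threshold at 0.24 (edgeR adjusted p = 0.014). Without *KD2* replicate 3, the highest of its line, the rise in *KD2* was 0.15 on the log2 scale (edgeR adjusted p = 0.014). Of the 50-base windows in its exons, 15.4% also occur in the pseudogenes *Gm5648* and *Gm15953*, and how reads matching both were assigned is not given in the sources used here.

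*Dnmt1* and *Uhrf1*, known to be read in the same window at the start of replication, moved in opposite directions. A stretch around an annotated start of each is shown because it holds a motif of the type bound by E2F factors, which drive genes of S phase. In both genes this start lies downstream of the others listed, and which start these cells use was not measured. The stretches run from 250 bases before to 50 bases after a RefSeq start site on GRCm38.p6, 5′ to 3′ along the gene, for the annotated start with the most CpG sites, and capitals mark the matches.
Dnmt1, chr9:20952574-20952873, minus strand: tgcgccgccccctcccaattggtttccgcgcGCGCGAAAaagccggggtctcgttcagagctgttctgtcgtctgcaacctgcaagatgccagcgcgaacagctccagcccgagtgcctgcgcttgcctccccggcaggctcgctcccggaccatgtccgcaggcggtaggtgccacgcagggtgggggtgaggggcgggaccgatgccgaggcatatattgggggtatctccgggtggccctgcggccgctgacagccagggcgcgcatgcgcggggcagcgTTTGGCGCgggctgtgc
Uhrf1, chr17:56304063-56304362, plus strand: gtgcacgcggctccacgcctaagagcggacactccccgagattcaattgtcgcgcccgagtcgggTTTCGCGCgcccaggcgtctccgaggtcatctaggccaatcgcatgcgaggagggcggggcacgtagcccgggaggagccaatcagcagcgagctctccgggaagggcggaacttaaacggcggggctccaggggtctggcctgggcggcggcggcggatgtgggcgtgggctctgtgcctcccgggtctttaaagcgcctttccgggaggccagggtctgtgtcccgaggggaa
Each stretch has 33 CpG sites, where the median over all 32851 promoters of the RefSeq table was 7. These are the highest of the starts listed, which had 2 to 33 CpG sites for the 3 of *Dnmt1* and 12 to 33 for the 2 of *Uhrf1*. The shares of motifs below are over all promoters and were not counted among CpG-rich promoters alone. The letters searched on both strands were TTTCGCGC, TTTGGCGC and TTTCCCGC, and a position on 1 strand can match only 1 of them. *Dnmt1* holds TTTCGCGC on the opposite strand, printed as its reverse complement at bases 32 to 39 of the stretch, and TTTGGCGC at bases 284 to 291. *Uhrf1* holds TTTCGCGC at bases 66 to 73. TTTCGCGC was in 0.323% of all promoters, TTTGGCGC in 0.514% and TTTCCCGC in 1.07%, and 1.84% held at least 1 of them. Of the 15 promoters that the table lists for the 8 genes, 2 had a match, the ones printed.

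Among the genes for new methylation, *Dnmt3b* changed more than *Dnmt3a*. *Dnmt3a* (ENSMUSG00000020661, plus strand of chromosome 12 from 3806007 to 3914443) was at 66.6, 69.4 and 67.6 CPM in *WT*, at 50.9, 55.3 and 51.7 CPM in *KD1* and at 56.9, 56.4 and 59.3 CPM in *KD2*. The 3 lines did not overlap, with *WT* highest and *KD1* lowest. Its level fell by 0.37 on the log2 scale in *KD1* (SE 0.057, edgeR adjusted p = 8.9e-05) and by 0.24 in *KD2* (SE 0.057, edgeR adjusted p = 0.0021). With scaling to library size alone the fall in *KD2* was 0.13 on the log2 scale and missed the threshold (edgeR adjusted p = 0.057). The difference between the lines, 0.13 on the log2 scale (95% interval 0.00 to 0.25), did not pass it either (edgeR adjusted p = 0.065), but did without *KD2* replicate 3 (0.11, edgeR adjusted p = 0.0497). Its exons overlap those of *Dnmt3aos* on the opposite strand by 133 bases, and whether reads were counted by strand is not given.

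*Dnmt3b* (ENSMUSG00000027478, plus strand of chromosome 2 from 153649450 to 153687730) was read at a much lower level, with 89 to 251 counts per culture. It was at 10.4, 10.0 and 9.28 CPM in *WT*, at 5.02, 5.07 and 3.59 CPM in *KD1* and at 5.70, 5.66 and 6.94 CPM in *KD2*. *WT* lay above both lines and the highest *KD1* culture lay below the lowest *KD2* culture. The log2 fold change was -1.12 in *KD1* (SE 0.137, edgeR adjusted p = 9.1e-06), a level 2.17-fold lower with a 95% interval of 1.77 to 2.66. In *KD2* it was -0.71 (SE 0.133, edgeR adjusted p = 3.3e-04), or 1.63-fold lower (1.34 to 1.99). The level in *KD2* was higher than in *KD1* by 0.41 on the log2 scale (SE 0.142, edgeR adjusted p = 0.021). That last difference was lost without *KD1* replicate 3, the lowest culture, at 0.26 on the log2 scale (edgeR adjusted p = 0.12), and without *KD2* replicate 3, the highest of its line, at 0.32 (edgeR adjusted p = 0.050). With counts thinned to the smallest library it was 0.36 (edgeR adjusted p = 0.054). Of the 50-base windows of *Dnmt3b*, 9.81% also occur in *Dnmt3c*, a rodent copy of it that acts in male germ cells. *Dnmt3c* had at most 1 count in any culture.

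*Dnmt3l* (ENSMUSG00000000730, plus strand of chromosome 10 from 78041947 to 78063622), the cofactor known from germ cells and embryonic stem cells, had 0 counts in all *WT* and *KD1* cultures and 1, 1 and 2 counts in the *KD2* cultures. All values were under the floor of 3 counts, so no fold change is given, and transcript at or below that floor was not detectable at this depth.

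The erasers changed unevenly, and each had its own pattern over the lines. *Tet1* (ENSMUSG00000047146, minus strand of chromosome 10 from 62804570 to 62908996) was counted 202, 249 and 170 times in *WT*, but 22, 23 and 25 times in *KD1* and 127, 132 and 64 times in *KD2*. In CPM these were 10.4, 9.96 and 8.30 in *WT*, 0.812, 0.904 and 1.01 in *KD1* and 5.13, 4.39 and 3.15 in *KD2*. The 3 lines formed 3 separate steps, with every *KD1* culture well above the floor of 3 counts. The level in *KD1* was 10.5-fold lower than in *WT* (95% interval 7.82 to 14.0), a log2 fold change of -3.39 (SE 0.196, edgeR adjusted p = 3.5e-09), and 3.67% of all genes tested had a larger absolute log2 change. In *KD2* it was 2.24-fold lower (1.77 to 2.82), a log2 fold change of -1.16 (SE 0.156, edgeR adjusted p = 1.6e-05), and 17.9% of genes had a larger one. *KD2* was 4.69-fold higher than *KD1* (3.42 to 6.42), by 2.23 on the log2 scale (SE 0.211, edgeR adjusted p = 4.3e-07). Without *KD2* replicate 3, the lowest *KD2* culture, the log2 fold change of *KD2* against *WT* was -0.98 (edgeR adjusted p = 5.0e-06), under the limit of a 2-fold change.

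The promoter of *Tet1* is shown because this gene moved furthest. It is the one start in the RefSeq table, it lies within the span of the gene given above, and it is printed in the same way.
Tet1, chr10:62887275-62887574, minus strand: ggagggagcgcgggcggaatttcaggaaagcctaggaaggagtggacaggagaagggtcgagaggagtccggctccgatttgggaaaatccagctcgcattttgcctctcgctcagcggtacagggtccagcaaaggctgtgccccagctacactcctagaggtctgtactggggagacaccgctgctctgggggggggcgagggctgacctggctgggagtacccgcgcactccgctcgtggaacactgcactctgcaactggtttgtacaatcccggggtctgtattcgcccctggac
It has 17 CpG sites and none of the letters searched, so it holds no capitals. The most CpG-rich promoters of *Dnmt3a*, *Dnmt3b*, *Tet2* and *Tet3* had 47, 30, 57 and 22 CpG sites, and those of *Dnmt3l*, the gene at or under the floor, had at most 6.

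*Tet2* (ENSMUSG00000040943, minus strand of chromosome 3 from 133463679 to 133545139), the family member often mutated in blood cancers, was at 44.1, 36.5 and 33.2 CPM in *WT*, at 33.0, 29.3 and 34.0 CPM in *KD1* and at 23.7, 23.3 and 20.8 CPM in *KD2*. *KD1* overlapped *WT*, while *KD2* lay below both. The log2 fold change was -0.74 in *KD2* (SE 0.101, edgeR adjusted p = 1.8e-05), a level 1.67-fold lower (95% interval 1.44 to 1.95). In *KD1* it was -0.24 (SE 0.098) with an edgeR adjusted p of 0.051, and over the alternatives that p ran from 0.024 to 0.28. The log2 fold change in *KD1* was -0.30 without *WT* replicate 3 (edgeR adjusted p = 0.025) and -0.12 without *WT* replicate 1 (0.28). Without *KD2* replicate 3, which is in neither group but enters the shared fit, it was -0.22 (0.027). With every culture kept, it passed with scaling to library size alone (edgeR adjusted p = 0.041), no filter on low counts (0.024) and the replicate block (0.034). Whether *Tet2* passed in *KD1* thus depended on single cultures and on the processing. *KD2* was lower than *KD1* by a tested difference of -0.50 on the log2 scale (SE 0.101, edgeR adjusted p = 5.1e-04).

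*Tet3* (ENSMUSG00000034832, minus strand of chromosome 6 from 83362373 to 83459084), known as the TET enzyme of the egg and early embryo and the one read highest here, showed the reverse. It was at 218, 207 and 187 CPM in *WT*, at 154, 142 and 153 CPM in *KD1* and at 196, 193 and 198 CPM in *KD2*. All *KD1* cultures lay below all others, and every *KD2* culture lay within the *WT* range. The level fell by 0.45 on the log2 scale in *KD1* (SE 0.064, edgeR adjusted p = 3.7e-05). In *KD2* the log2 fold change was -0.06, with a 95% interval of -0.20 to 0.08 (edgeR adjusted p = 0.41). *KD2* was higher than *KD1* by 0.39 on the log2 scale (SE 0.064, edgeR adjusted p = 9.4e-05), so the difference between the lines passed the test for all 3 TET genes, upwards in *KD2* for *Tet1* and *Tet3* and downwards for *Tet2*.

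**Figure D2:**
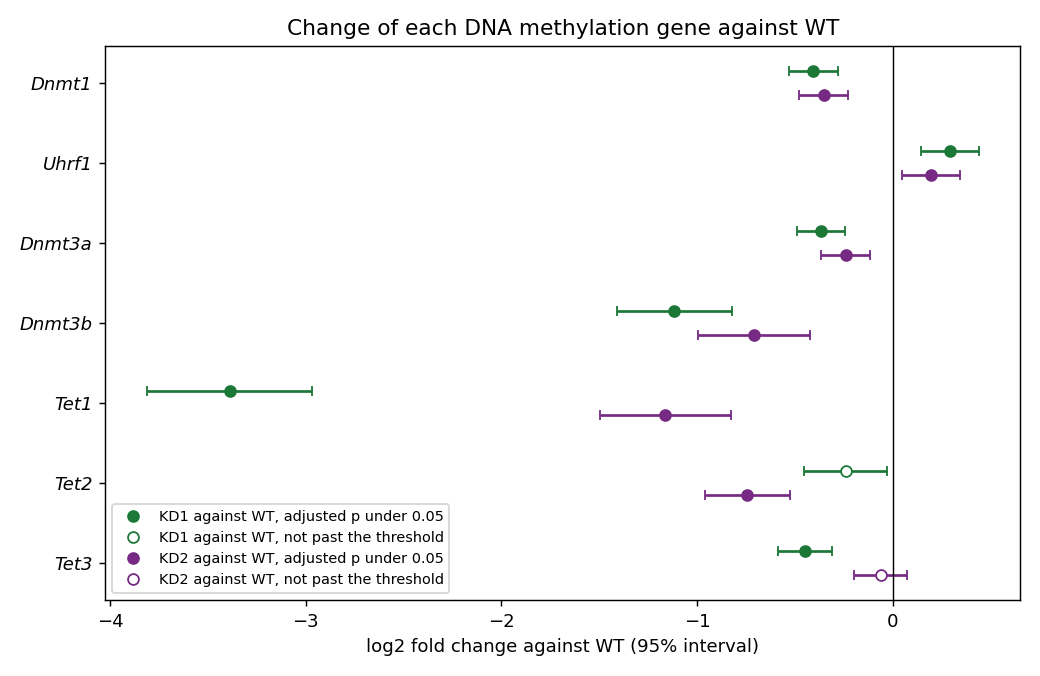
Log2 fold change of the 7 tested genes in *KD1* (green) and *KD2* (purple) against *WT*, with the 95% interval of the edgeR fit as a bar and open points where the adjusted p was not under 0.05. *Tet1* lies furthest left in both lines, at -3.39 and -1.16, *Uhrf1* alone lies right of 0, and the open points are *Tet2* in *KD1* (unadjusted interval below 0) and *Tet3* in *KD2*.

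Set directly against each other, *KD2* had 3 of the 7 genes higher than *KD1* (*Tet1*, *Tet3* and *Dnmt3b*) and 1 lower (*Tet2*), beside 34.8% and 33.0% of all genes tested and 67.8% in either direction. *Dnmt1*, *Uhrf1* and *Dnmt3a* did not pass the test between the lines. With scaling to library size alone, *Dnmt1* (0.18 on the log2 scale, edgeR adjusted p = 0.014) and *Dnmt3a* (0.25, edgeR adjusted p = 0.0013) passed it, as *Dnmt3a* did with at least 10 counts in every culture (0.16, edgeR adjusted p = 0.017). For *Uhrf1* the log2 difference was -0.10 with a 95% interval of -0.24 to 0.05 (edgeR adjusted p = 0.24), or -0.16 without *KD2* replicate 3 (edgeR adjusted p = 0.0093). The cultures of the lines did not overlap for 5 of the 7 genes, beside 71.6% of all genes, with *Dnmt1* and *Uhrf1* the exceptions. Against *WT*, the cultures of 6 of the 7 genes did not overlap in either line, *Tet2* being the exception in *KD1* and *Tet3* in *KD2*, where 68.8% and 67.9% of all genes tested did not overlap.

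To compare the genes with each other, CPM was divided by the length of all exons of a gene in kb. In *WT* the order of these levels was *Dnmt1* at 63.9 ± 2.76 CPM per kb (SD, n = 3), *Uhrf1* at 57.0 CPM per kb, *Tet3* at 12.2, *Dnmt3a* at 4.08, *Tet2* at 2.25, *Dnmt3b* at 1.94, *Tet1* at 0.617 and *Dnmt3l* at 0. Neighbours in this order were separate in every culture except *Tet2* and *Dnmt3b*, whose ranges overlapped. In both *KD* lines *Uhrf1* stood first, at 69.8 CPM per kb in *KD1* and 65.4 in *KD2*, and *Dnmt1* second, at 48.2 and 50.1, without overlap. The rest of the order was as in *WT*, with *Tet2* and *Dnmt3b* again overlapping in *KD2* but not in *KD1*. With the longest transcript as the length, the levels in *WT* were up to 1.84 times higher, so they depend on which isoforms are read, which counts per gene cannot show.

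Summed per length, the TET genes stood at 15.1 ± 1.32 CPM per kb in *WT*, 10.9 ± 0.55 in *KD1* and 13.3 ± 0.11 in *KD2*. *Tet3* made up most of this sum, with 81.1% in *WT*, 82.1% in *KD1* and 87.9% in *KD2*. The share of *Tet1* was 4.08% in *WT*, 0.539% in *KD1* and 2.05% in *KD2*, and that of *Tet2* was 14.9%, 17.4% and 10.0%. The transcript with the largest fold change was thus the least abundant of the 3 in every line. Summed over the methyltransferases, the level was 69.9 ± 2.81 CPM per kb in *WT*, 52.3 ± 0.01 in *KD1* and 54.7 ± 3.32 in *KD2*, of which *Dnmt1* made up 91.4%, 92.2% and 91.5%. The share of *Dnmt3b* was 2.78%, 1.71% and 2.18%.

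Cloned lines can gain or lose stretches of chromosomes, so each gene was set beside the tested genes within 2 Mb of it. For *Dnmt1* in *KD1* the 66 neighbours had a median log2 fold change of -0.42, beside -0.41 for the gene itself, and 53 of the 66 lay below 0 and 37 were called lower. In *KD2* those neighbours had a median of -0.02 beside -0.35 for *Dnmt1*. The 54 neighbours of *Dnmt3b* had a median of -0.37 in *KD1* and 0.00 in *KD2*, where the gene was at -1.12 and -0.71. Around *Uhrf1* the medians of 50 neighbours were 0.03 in *KD1* and 0.33 in *KD2*, so its 0.20 in *KD2* was below the median of its region while its 0.29 in *KD1* was above it. The 30 neighbours of *Tet1* had medians of -0.06 and -0.20, and none in *KD1* and 3 in *KD2* had a lower log2 fold change than *Tet1*. For *Tet2* the 17 neighbours had medians of -0.07 and 0.02, and none had a lower log2 fold change than the gene in *KD2*. *Tet3*, with 51 neighbours, stood beside medians of -0.12 in *KD1* and 0.23 in *KD2*, and *Dnmt3a*, with 24, beside 0.02 and 0.19. Medians over whole chromosomes in *KD2* were 0.28 for that of *Uhrf1* and 0.23 for those of *Tet3* and *Dnmt3a*. They were 0.15 for *Dnmt1*, 0.14 for *Dnmt3b*, -0.02 for *Tet2* and -0.15 for *Tet1*, so some shifts in *KD2* were not confined to 2 Mb. In *KD1* the chromosome medians ran from -0.16 (*Dnmt3b*) to 0.07 (*Dnmt3a*). The medians over all genes tested were -0.03 and 0.01, and the part of these regions and chromosomes in the changes of single genes was not tested.

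**Figure D3:**
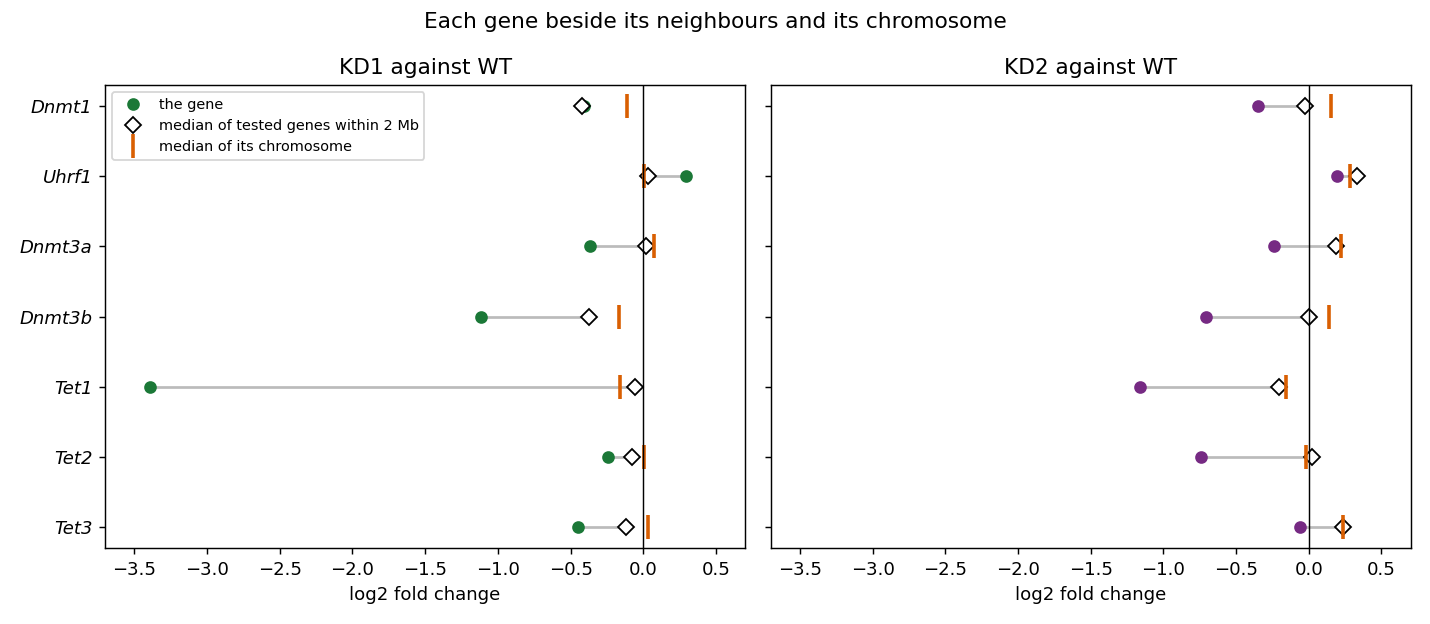
Log2 fold change of each tested gene (filled circle) beside the median of the tested genes within 2 Mb of it (open diamond) and of its whole chromosome (orange bar), for *KD1* and *KD2* against *WT*. The circle and the diamond coincide near -0.4 for *Dnmt1* in *KD1*. *Tet1* lies far to the left of the median of its neighbours in both lines, which is -0.06 in *KD1* and -0.20 in *KD2*. Single neighbours are not drawn, and 3 of the 30 had a lower log2 fold change than *Tet1* in *KD2*.

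The wider set of genes around these enzymes was read from lists made by their known roles. Of 18 partners and regulators of the writers, 15 were tested, and 4 rose and 5 fell in *KD1* while 2 rose and 8 fell in *KD2*, with median log2 fold changes of -0.02 and -0.18. These are shares of 26.7% higher and 33.3% lower in *KD1*, beside 26.9% and 30.0% of all genes, and of 13.3% and 53.3% in *KD2*, beside 34.0% and 33.3%. *Hells* and *Cdca7*, which together form a remodeller needed for methylation of silent DNA, differed in *KD1*, where *Hells* rose by 0.39 and *Cdca7* fell by 0.52 on the log2 scale. *Cdca7* also fell in *KD2*, by 0.72, where the log2 fold change of *Hells* was 0.01 (edgeR adjusted p = 0.93). These names were picked after their values were seen, for their bond with each other.

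Of 22 partners of the erasers, among them the enzymes that make or clear TET cofactors and the repair enzymes that remove oxidised cytosine, 20 were tested. In *KD1* 3 rose and 7 fell, with a median of -0.05, and in *KD2* 5 rose and 11 fell, with a median of -0.34. Of the tested, 15.0% were higher and 35% lower in *KD1* (26.9% and 30.0% of all genes), and 25.0% and 55.0% in *KD2* (34.0% and 33.3%). The stress-induced *Gadd45* genes, linked to repair-based demethylation, went different ways. *Gadd45g* was at 70.1 CPM in *WT*, at 8.28 CPM in *KD1* and at 49.4 CPM in *KD2*, a log2 fold change of -3.08 in *KD1* (SE 0.161, edgeR adjusted p = 1.2e-09). *Gadd45a* fell to 47.7 CPM in *KD2* from 132 CPM (log2 fold change -1.47) and *Gadd45b* rose to 124 CPM from 41.3 CPM (1.58). Each moved the same way in the other line, with smaller changes that passed the test. The log2 fold change was -0.51 for *Gadd45g* in *KD2*, and -0.95 for *Gadd45a* and 0.59 for *Gadd45b* in *KD1*. *Cxxc5*, which encodes a CpG-binding partner of TET2, stood at 6.16 ± 0.635 CPM (SD, n = 3) in *KD2* beside 1.33 ± 0.358 CPM in *WT* and was higher by 2.18 on the log2 scale (SE 0.181, edgeR adjusted p = 1.4e-07). In *KD1* it stood at 1.01 CPM and did not pass the test (edgeR adjusted p = 0.14).

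All 9 genes of the methyl-CpG binding proteins and their families were tested, and 2 rose and 4 fell in *KD1* while 4 rose and 5 fell in *KD2*, with medians of 0.04 and -0.22. The shares were 22.2% higher and 44.4% lower in *KD1*, beside 26.9% and 30.0% of all genes, and 44.4% and 55.6% in *KD2*, beside 34.0% and 33.3%. Not every member of these families reads methylation, and *Mbd6*, the one with a change above 2-fold, encodes a protein with the domain that is known not to bind methylated DNA. It stood at 40.8 CPM in *KD1* beside 82.1 CPM in *WT* (log2 fold change -1.01, edgeR adjusted p = 1.4e-07), and was lower in *KD2* too, at 55.1 CPM (-0.58, edgeR adjusted p = 2.4e-05). In the methyl donor cycle, which makes and recycles S-adenosylmethionine, 16 of 18 genes were tested. There, 10 fell and 2 rose in *KD1*, with a median log2 fold change of -0.31, and 10 fell and 1 rose in *KD2*, with a median of -0.44. That is 62.5% lower in each line, beside 30.0% and 33.3% of all genes, and 12.5% and 6.25% higher, beside 26.9% and 34.0%. The largest falls in *KD2* were those of the mitochondrial folate enzymes *Shmt2* (526 to 190 CPM, log2 fold change -1.47) and *Mthfd2* (478 to 190 CPM, -1.33) and of *Mtr*, the methionine synthase (65.2 to 28.3 CPM, -1.20). These fell in *KD1* too, by 0.64, 0.64 and 0.35 on the log2 scale. *Cbs*, which draws homocysteine out of the cycle, is the gene counted as higher in *KD2* and 1 of those lower in *KD1*. It had 3, 9 and 8 counts in *WT*, 1, 4 and 0 in *KD1* and 47, 60 and 55 in *KD2*. *Cbs* passed the filter through *KD2* alone, so its rise there follows from that selection and supports nothing. Its call in *KD1* rests on at most 9 counts per culture and supports nothing either. The counts, shares and medians of this list include *Cbs*.

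Germline genes are known as targets of promoter methylation in somatic cells. Of the 19 listed, 12 were at or under the floor in every library and 3 were tested. *Rhox5*, an X-linked homeobox gene, had 6, 5 and 4 counts in *WT*, 2, 3 and 1 in *KD1* and 15, 23 and 21 in *KD2*. *Taf7l*, a germ cell form of a TFIID subunit, had 7, 4 and 1 counts in *WT*, 3, 2 and 3 in *KD1* and 14, 16 and 9 in *KD2*. Both passed the filter through *KD2* alone, so that they are higher there was fixed by the filter and is given with no test. *Sycp1* stood at 6.66, 6.42 and 6.04 CPM in the 3 lines and passed no test.

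*Dnmt1* and *Uhrf1* are known to be read with the genes of S phase, and those genes moved in different ways in the lines. Of 20 S phase genes, 14 rose and 2 fell in *KD1*, with a median log2 fold change of 0.22, and 4 rose and 10 fell in *KD2*, with a median of -0.16. Higher were 70.0% in *KD1* and 20% in *KD2*, beside 26.9% and 34.0% of all genes, and lower were 10% and 50%, beside 30.0% and 33.3%. Their summed level was between 3283 and 3520 CPM in *WT*, between 3991 and 4089 CPM in *KD1* and between 3020 and 3156 CPM in *KD2*. *Cdc6*, a loader of the replicative helicase, changed most in *KD1*, to 87.3 CPM beside 40.4 in *WT* (log2 fold change 1.11, edgeR adjusted p = 1.5e-08). It was higher in *KD2* too, at 59.8 CPM (0.56, edgeR adjusted p = 1.3e-05). *Uhrf1* was higher in *KD1*, whose S phase sum was above *WT*, and in *KD2*, whose sum was below it, and *Dnmt1* was lower in both. The *Uhrf1* rise in *KD2* lost its call under 3 of 17 alternatives. By DNA content, the study noted more S phase cells in *KD1* and more polyploid cells in both *KD* lines. Of 14 genes of G2 and M phase, 5 rose and 6 fell in *KD1* and 5 rose and 4 fell in *KD2*, with medians of 0.04 and 0.06. These shares, 35.7% and 42.9% in *KD1* and 35.7% and 28.6% in *KD2*, stood beside 26.9% and 30.0% and beside 34.0% and 33.3% of all genes. The part of the S phase shift in the levels of *Dnmt1* and *Uhrf1* was not tested.

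**Figure D4:**
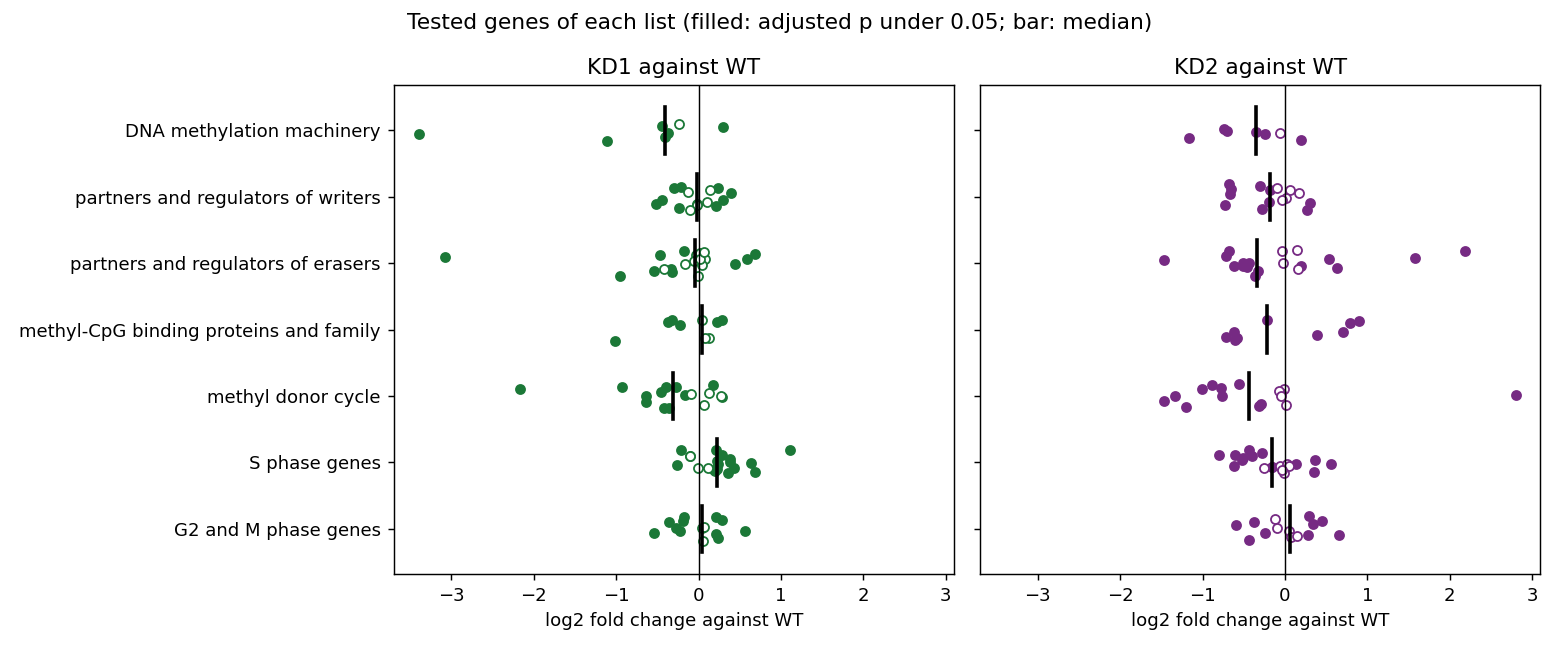
Log2 fold change against *WT* of the tested genes of 7 lists in *KD1* (left) and *KD2* (right), with filled points for an adjusted p under 0.05 and a black bar at the median of each list. Medians of the 8 methylation genes are -0.41 and -0.35 (7 tested), S phase genes lie to the right in *KD1* (median 0.22) and the methyl donor cycle lies to the left in both lines (-0.31 and -0.44).

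For each gene that was called, the pair of other genes with the most similar course over the 9 cultures was taken, by the root mean square difference of log2 CPM after each gene was centred on its own mean. *Tet1*, which spanned 3.54 on the log2 scale, was most like *Rab39b*, a RAB GTPase gene, at a difference of 0.14, and *Sp8*, a zinc finger transcription factor, at 0.24. *Rab39b* was at 18.2, 1.62 and 8.89 CPM in *WT*, *KD1* and *KD2*. Nearest to *Dnmt3b*, which spanned 1.51, were *Pard6a*, a gene of apical polarity, at 0.11 and *Tbc1d16* at 0.12. *Tet2* was most like *Zscan26* and *Huwe1*, at 0.08 and 0.09, and *Tet3* most like *Slc9a8* and *Dido1*, at 0.05 and 0.06. For *Dnmt1* these were *Kat14* and *Lmf2*, for *Dnmt3a* *Abhd12* and *Prr14*, and for *Uhrf1* *Cant1* and *H13*, each at 0.03 to 0.04. They were picked for this likeness, so it is a description with no test.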

How the data were processed

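For 9 cultures, the authors deposited raw counts per gene, as whole numbers and without normalization. Before that they had trimmed reads and dropped those of low average quality with fastp, aligned with HISAT2 against GRCm38, and assigned reads to exons per gene by featureCounts. Whether counting used strand, and how reads matching several genes were treated, is not given in the sources used here. The labels state that lysed cells were flash frozen, and the study's methods state that they were not.

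Here the quasi-likelihood test of edgeR 4.0.16 (R 4.3.3) was run on the counts. Scaling was by TMM, the expression filter used the 3 lines, and all 9 cultures entered 1 fit with no block. Benjamini-Hochberg adjustment covered the 15253 genes tested, with calls at an adjusted p under 0.05. CPM are counts per 1000000 of the TMM-scaled library size, and SE and 95% intervals come from the fit. The steps were tested on simulated data. Positions and exon lengths were taken from a GENCODE annotation of GRCm38 in another release than the study's, which matched 53569 of 55228 names directly, and promoters from RefSeq, with all 8 genes matched. Depth was 19231428 to 28360592 counts, and the floor of 3 counts covers counting error only.

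The 8 genes, the lists and the tests were chosen with earlier results of these data known. From each list, genes called with an absolute log2 fold change above 1 in a line were named, at most 4 per list and line, and *Hells* and *Cdca7* besides, plus the 2 genes most like each called gene among those with a mean log2 CPM above 1. Alternatives were DESeq2 1.42.0, other scaling, other filters, only the 6 cultures compared, thinned counts, the replicate block, leaving out each culture in turn, and the longest transcript as length. Nothing measured methylation, and no protein sequence was used.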

Additional observations from a re-analysis of the deposited data

Results flagged for a closer look

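The change against *WT* differed between the lines for 4 of the 7 genes, by the edgeR test of *KD2* against *KD1*, and whether this comes from the edit or from the clone cannot be told apart. For *Tet1* the difference was 2.23 on the log2 scale (adjusted p = 4.3e-07), for *Tet3* 0.39 (9.4e-05), for *Dnmt3b* 0.41 (0.021) and for *Tet2* -0.50 (5.1e-04), with groups that did not overlap in any of them. Over all genes tested, 67.8% differed between the lines at this threshold and 71.6% did not overlap. The sign of the *KD2* value relative to *KD1* was kept for these 4 under all 17 alternatives run, and of these 4 *Dnmt3b* alone lost its call, under the 3 alternatives given with its values above.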

How the results depend on the processing

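Over 17 alternatives, the 21 results for single genes (7 genes in 3 comparisons) gave 357 values, of which 337 kept their direction and side of the threshold, 7 lost the call, 10 gained one, 3 without a call turned sign and 0 called values reversed. *Dnmt1*, *Dnmt3b* and *Tet1* against *WT* in both lines, *Uhrf1*, *Tet3* and *Dnmt3a* in *KD1* and *Tet2* in *KD2* kept their calls under every alternative. Scaling to library size alone moved the median of all genes by 0.11 in *KD2* against *WT* and by 0.13 against *KD1* on the log2 scale, made 5 genes higher in *KD2* than in *KD1* instead of 3 (*Dnmt1* and *Dnmt3a* joined), and turned *Tet3* in *KD2* against *WT* to 0.05 (adjusted p = 0.51) and *Uhrf1* in *KD2* against *KD1* to 0.03 (0.71), as a filter of 10 counts in every culture turned *Tet3* to 0.01 (0.90). The count of genes higher in *KD2* than in *WT*, which is *Uhrf1* alone, was 0 with no filter on low counts (adjusted p = 0.053) and 0 with only the 6 cultures compared (0.052), where fewer cultures set the spread, and 0 to 1 with single cultures left out, 0 being without *WT* replicate 1. The count lower in *KD2* than in *KD1* was 1 to 2 with single cultures left out, 2 being without *KD2* replicate 3, when *Uhrf1* joined *Tet2* (log2 difference -0.16). With the longest transcript as length, levels in *WT* were 80.3 CPM per kb for *Dnmt1*, 67.7 for *Uhrf1*, 18.7 for *Tet3*, 7.01 for *Dnmt3a*, 4.13 for *Tet2* and 2.29 for *Dnmt3b*, with order unchanged. Where no construction of the alternative shows it, the cause was not tested.

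Same-numbered cultures did not deviate together (mean correlation 0.0012, from -0.07 to 0.08, beside -0.0011 for other pairs), so the numbers did not pair them. With the replicate number as a block, *Tet2* passed in *KD1* (log2 fold change -0.24, adjusted p = 0.034), giving 6 genes lower there instead of 5, and no other call of the 21 changed. Depth left *Dnmt3l*, with at most 2 counts, without a test, and thinning to the smallest library ended the call of *Dnmt3b* in *KD2* against *KD1*.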
